A study of Homo sapiens with 25 samples.

Results

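Candidate 240 ASO1 is an antisense oligonucleotide (ASO) that was transfected at 25 nM into A549 and NCI-H460, both established human lung cancer lines, and RNA was sequenced 24 h later. The comparison set its libraries against those of a neutral control ASO (Control A, Qiagen) within each line, 3 against 3 in A549 (replicates 3 to 5) and 2 against 2 in NCI-H460 (replicates 1 and 2). These are 10 of the 25 libraries of the series, 5 with ASO1 and 5 with the control. A549 is labelled an adenocarcinoma and NCI-H460 a subtype of large cell carcinoma. The remaining libraries received another ASO aimed at the same candidate (240 ASO3) or ASOs aimed at a second candidate (42 ASO3 and 42 ASO5). No library without an ASO was used, so each value describes ASO1 relative to cells that were also transfected. The question was how large an effect of ASO1 could have been seen, and which genes and pathways stayed within stated bounds under the ASO that left more of the candidate RNA than ASO3 in A549.

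An ASO of this kind is a short modified DNA strand that pairs with a complementary RNA. RNase H1, a nuclease of the nucleus and cytoplasm that cuts RNA paired with DNA, then cleaves the paired RNA, so such ASOs are used on long noncoding RNAs (lncRNAs) that stay in the nucleus. ASOs of different sequence against one RNA differ in how much of it they remove, and each can also act on unrelated RNAs through partial pairing or through binding of proteins. A pair of ASOs against one target is therefore commonly read together.

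The labels name candidate 240 as CHiLL2 and give no gene for it. AC015712.6 (ENSG00000272808.4) is taken as its RNA here, an assignment that the labels do not carry. In GENCODE v29 on GRCh38 this gene lies on chromosome 15 from 100849831 to 100876836, on the plus strand, and is a processed transcript with no coding sequence. It overlaps AC015712.1 (ENSG00000232386.9), a lincRNA gene on the same strand from 100849561 to 100861756. Of the exonic bases of the 2 AC015712.6 transcripts (3652 and 5068 bases), 11.4% to 15.2% also lie in exons of AC015712.1. Of those of the 5 AC015712.1 transcripts (516 to 755 bases), 42.4% to 89.0% lie in exons of AC015712.6. The ASO sequences were not used here, so the sites that ASO1 and ASO3 pair with are not shown. The sequences below, read from the GENCODE v29 transcripts, show the bases that these genes share with each other. The first is from the AC015712.6 transcript ENST00000431060.4 and the second from the AC015712.1 transcript ENST00000561231.5. The last exons named are those of these transcripts, not of the whole genes. Capitals mark the end of an exon that both transcripts share. Lower case marks the start of the last exon in the first and the whole last exon in the second.
AC015712.6, end of the shared exon and start of its last exon: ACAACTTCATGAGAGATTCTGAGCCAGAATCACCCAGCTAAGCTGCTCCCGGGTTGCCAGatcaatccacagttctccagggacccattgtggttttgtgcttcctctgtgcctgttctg
AC015712.1, end of the shared exon and its last exon: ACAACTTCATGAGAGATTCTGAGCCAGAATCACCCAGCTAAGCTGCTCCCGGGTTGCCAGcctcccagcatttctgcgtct
Only bases after the shared end tell these transcripts apart there.

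The deposited values are TPM, a level per transcript length from which read numbers cannot be read back, so depth is unknown and no counting interval is given. Over the 10 libraries, column sums ran from 947369 to 1066350, detected gene names from 25015 to 26694, and the mitochondrial share from 7.64% to 10.9%. The epithelial keratin genes KRT8 and KRT18 were high in both lines, while the epithelial adhesion genes EPCAM (5.38 TPM) and CDH1 (18.1 TPM) were expressed in A549 controls and stood at 0.627 and 0.0492 TPM in NCI-H460 controls. NKX2-1, which defines lung lineage, was listed at 0 in A549 controls and stood at 0.0334 TPM in NCI-H460. PTPRC, which marks leukocytes, and CD3E, which marks T cells, were listed at 0 in the controls of both lines. Of 12 leukocyte genes, 3 in A549 and 2 in NCI-H460 reached the filter described below. Control replicate 5 of A549 stood apart in its stress genes, and control replicate 3 in the number of low genes. Of 10466 A549 genes at 5 TPM or more, 182 lay over 1.5-fold below all other libraries in control replicate 3, against 8 to 26 in the other 5 libraries compared. The stress, mitosis, immediate early, YAP and respiratory chain lists and the comparison of the lines are given with and without these libraries.

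AC015712.6 was first examined in every library. In A549 it stood at 0.267, 0.418 and 0.354 TPM in the controls and at 0.128, 0.249 and 0.178 TPM with ASO1. All ASO1 libraries lay below all controls, and both groups were far below 1 TPM. Within pairs of equal replicate number, 48.0%, 59.6% and 50.3% of the control level was left, a log2 difference of -0.29, -0.29 and -0.33. The means were 0.347 ± 0.0757 and 0.185 ± 0.0609 TPM (SD, n = 3), so that 53.4% of the control level was left. The difference was -0.31 on the log2(TPM + 0.5) scale, and the exact two-sided permutation test gave p = 0.1, the smallest value that 3 against 3 libraries allow. The exact sign-flip test over the 3 pairs gave p = 0.25, also the smallest possible. Fitted with limma on all genes without a filter, the 95% confidence interval was -0.56 to -0.05 and the adjusted p was 1. With ASO3, which shares these controls, 0, 0.0297 and 0.0164 TPM were measured, 4.44% of control.

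In NCI-H460 the target RNA was near 0 in both groups, and no loss was detected. AC015712.6 stood at 0.0492 and 0.107 TPM in the controls and at 0.0914 and 0.0816 TPM with ASO1, and the groups overlapped. The ASO1 mean was 111% of control (exact two-sided permutation test, p = 1, where 0.333 is the smallest possible), and the sign turned without control replicate 1 (-0.049 on the log2 scale).

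The overlapping AC015712.1 was better measured in A549, and no loss of it was detected with ASO1. Its controls held 2.48, 2.19 and 2.94 TPM and the ASO1 libraries 2.56, 2.58 and 2.96 TPM, ranges that overlap. The log2 fold change was 0.08 (SE 0.25, interval -0.45 to 0.61). With ASO3 the libraries held 0.568, 0.310 and 0.307 TPM, and the direct comparison of ASO3 with ASO1, which uses no control library, gave a log2 difference of -1.85 (adjusted p = 0.000202). In NCI-H460 AC015712.1 was below the filter, at means of 0.467 TPM in controls and 0.353 TPM with ASO1.

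**Figure D1:**
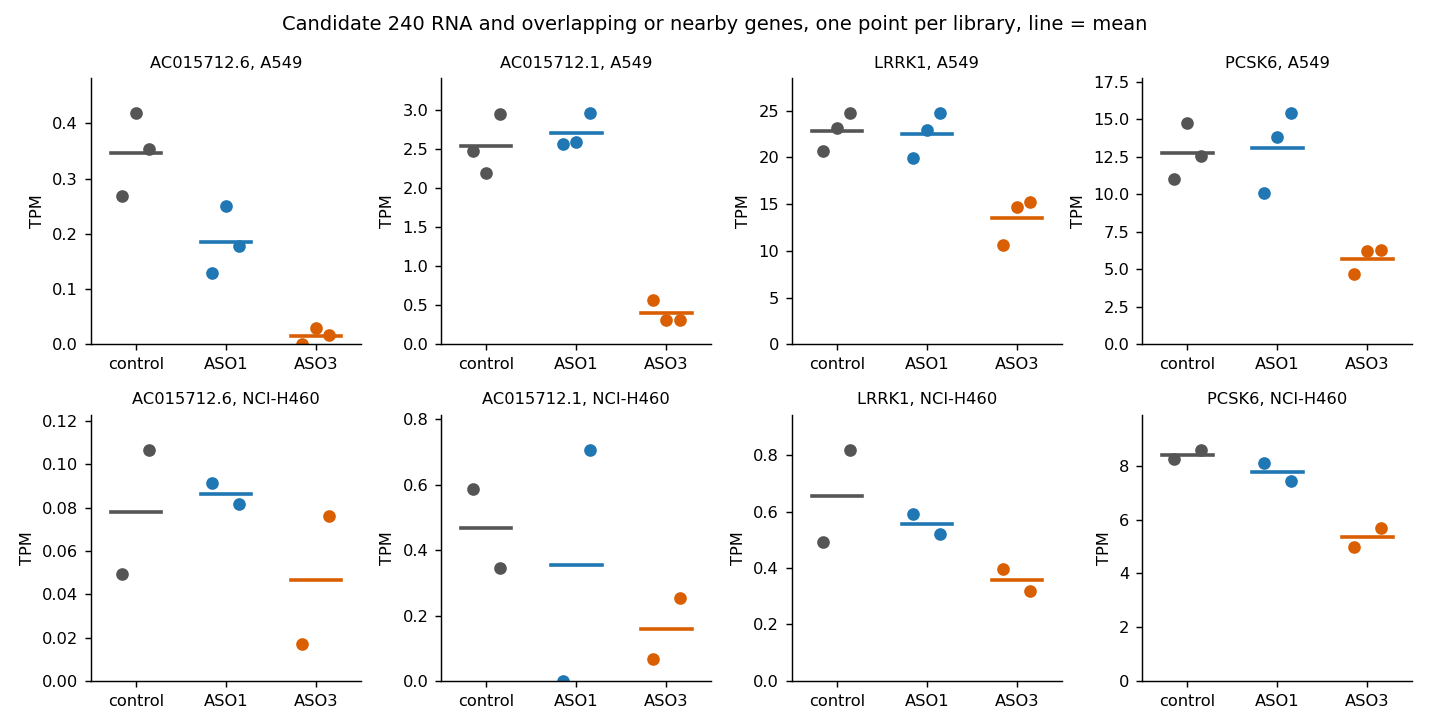
TPM of AC015712.6, AC015712.1 and the neighbouring genes LRRK1 and PCSK6 in each library (points) with the group mean (line), for the control ASO, 240 ASO1 and 240 ASO3, in A549 (upper row, 3 libraries a group) and NCI-H460 (lower row, 2 libraries a group), with a separate TPM axis from 0 in each panel. With ASO1 in A549 only AC015712.6 of these 4 genes lies below its controls in all libraries, while with ASO3 all 4 do.

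The protein-coding neighbours of the locus were compared next, since loss of a lncRNA or of its transcription can act on genes nearby. Of 10 such genes tested in A549 and 9 in NCI-H460, 0 passed with ASO1 in either line (limma), and their A549 levels lay between 89.3% and 104% of control. LRRK1, a kinase gene of bone metabolism, stood at 20.7, 23.2 and 24.7 TPM in A549 controls and 19.9, 22.9 and 24.7 TPM with ASO1, 98.6% of control (log2 fold change -0.02, interval -0.36 to 0.31). PCSK6, which encodes a proprotein convertase, stood at 103% (interval -0.36 to 0.41), CHSY1, a chondroitin synthase gene, at 104%, and ALDH1A3, which makes retinoic acid, at 96.5%. Where ASO1 and ASO3 were compared directly in A549, LRRK1 (log2 difference -0.73, adjusted p = 0.00583), PCSK6 (-1.12, 0.000784), CHSY1 (-0.67, 0.0111) and TM2D3 (-0.35, 0.0176) were lower with ASO3. In NCI-H460 CHSY1 stood at 82.8% of control with ASO1, PCSK6 at 92.4%, TM2D3 at 98.4% and ALDH1A3 at 140% of a control mean of 0.883 TPM, and no neighbour differed between ASO3 and ASO1 past the threshold.

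Across all genes, ASO1 gave no call in either line. The test used log2(TPM + 0.5) and took in each gene whose average reached 1 TPM in the line. Such a scale understates fold changes of low genes. A gene was called at a Benjamini-Hochberg adjusted p under 0.05. In A549, 0 of 14740 genes passed in limma (0%) and 267 (1.81%) reached an unadjusted p under 0.05, with 1 as the smallest adjusted p. In NCI-H460 0 of 13774 passed (0%), with 493 (3.58%) at an unadjusted p under 0.05 and a smallest adjusted p of 0.0609. These counts rest on a spread shared by all 5 groups of a line. With only ASO1 and control libraries in the limma fit, 1534 NCI-H460 genes and 249 A549 genes reached an unadjusted p under 0.05. Again 0 passed in either line. The authors' deposited tables hold 0 genes with a q-value under 0.05 for ASO1: all 18424 A549 genes have a q-value of 1, and the smallest of 18549 in NCI-H460 is 0.288. The labels do not say whether libraries are separate cultures, so these p-values measure only the spread between libraries, which may be technical.

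The same fits made many calls with the other ASO against the candidate. With ASO3 against the same controls, 2036 genes were called in A549 (13.8%) and 780 in NCI-H460 (5.66%). ASO3 compared directly with ASO1 gave 2465 calls in A549 (16.7%), 1068 higher (7.25%) and 1397 lower (9.48%) with ASO3, and 402 in NCI-H460 (2.92%), 143 higher (1.04%) and 259 lower (1.88%). The A549 count was 4411 with the replicate number as a block, which compares libraries of equal number. It was 1582 without ASO1 replicate 4, and the NCI-H460 count was 52, 53 and 65 without ASO1 replicate 2, ASO1 replicate 1 and ASO3 replicate 2, and 181 without ASO3 replicate 1. The central 90% of ASO1 fold changes lay between -0.31 and 0.30 on the log2 scale in A549 and between -0.37 and 0.33 in NCI-H460, against -0.80 to 0.74 and -0.65 to 0.61 with ASO3.

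**Figure D2:**
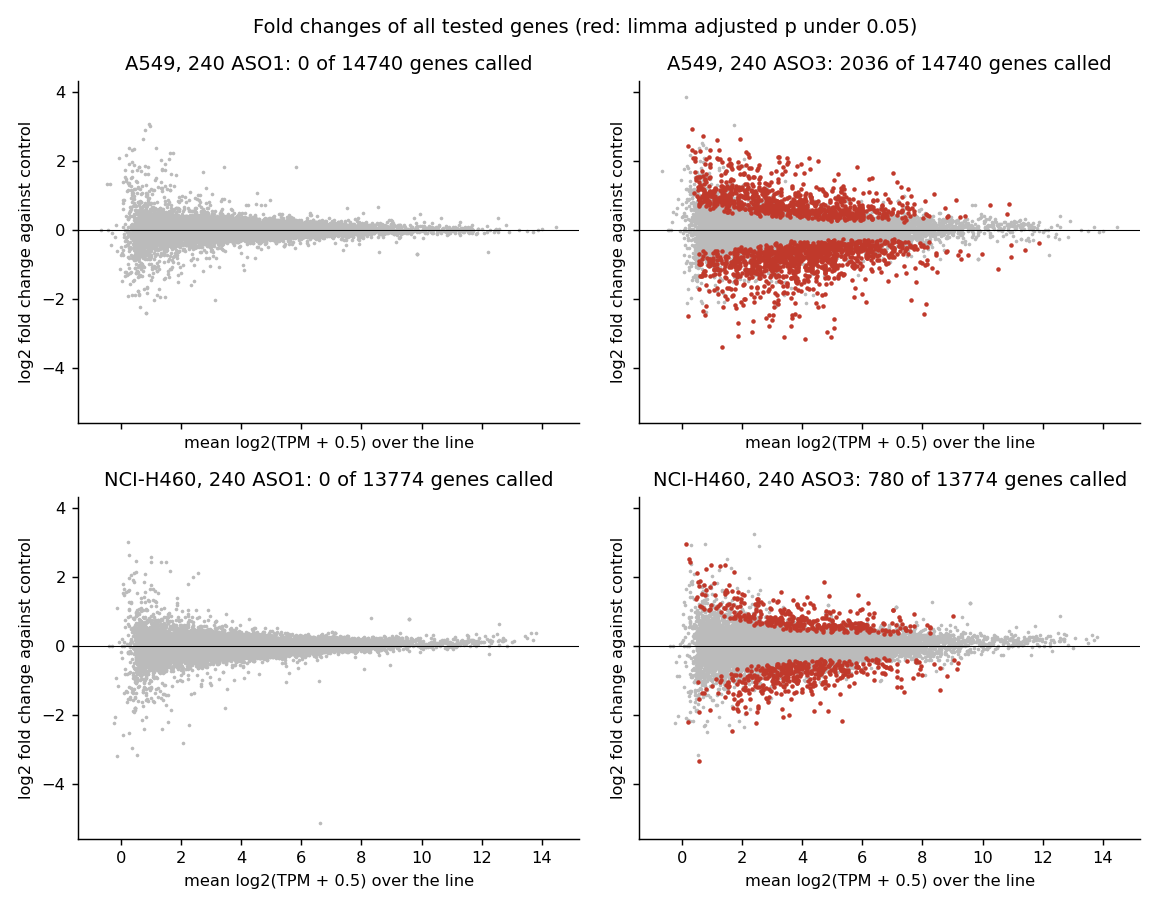
Log2 fold change against control (vertical) and mean log2(TPM + 0.5) over the line (horizontal) of every tested gene with 240 ASO1 (left) and 240 ASO3 (right) in A549 (top) and NCI-H460 (bottom), with genes called by limma at an adjusted p under 0.05 in red. No gene is red with ASO1, and its widest fold changes sit at low means, apart from the pseudogene RPS28P7 at -5.15 (SE 1.91) in NCI-H460.

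The size of effect that could have been seen was read from the interval of each gene. The margin of a 95% confidence interval, its distance from the estimate to either end, had a median of 0.41 on the log2 scale in A549 (1.33-fold) and 0.37 in NCI-H460 (1.29-fold). With the replicate number as a block, this margin had a median of 0.30 in A549 and 0.37 in NCI-H460. It depended on the level of the gene: the median was 0.59 and 0.58 at 1 to 5 TPM, 0.40 and 0.36 at 5 to 20 TPM, 0.31 and 0.28 at 20 to 100 TPM, and 0.33 and 0.28 at 100 TPM or more. A call needs more than such a margin, since p-values are adjusted over all genes. Had 1 gene alone responded, the median gene would have needed an estimate of 1.42 in A549 (2.68-fold) and 1.64 in NCI-H460 (3.12-fold). Had a response as broad as that with ASO3 occurred, the median gene would have needed 0.60 (1.52-fold) and 0.67 (1.59-fold). The largest called p with ASO3 was 0.00689 and 0.00283 (limma). These needed sizes are from the fit without the block, whose median margin in A549 was wider (0.41 against 0.30).

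Most genes were bounded within 2-fold. The whole interval of the ASO1 fold change lay within 2-fold in either direction for 13166 A549 genes (89.3%) and 12248 NCI-H460 genes (88.9%), and within 1.5-fold for 8742 (59.3%) and 8332 (60.5%). At 20 to 100 TPM the shares within 2-fold were 98.3% and 99.1%, and at 1 to 5 TPM they were 72.4% and 70.3%. A 1.5-fold change could be bounded for 23.5% and 19.5% of genes at 1 to 5 TPM. For comparison with what ASO3 did, its called genes had a median absolute log2 fold change of 0.77 in each line, 70.4% and 71.7% of them moved by less than 2-fold, and the smallest called changes were 0.24 and 0.33.

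**Figure D3:**
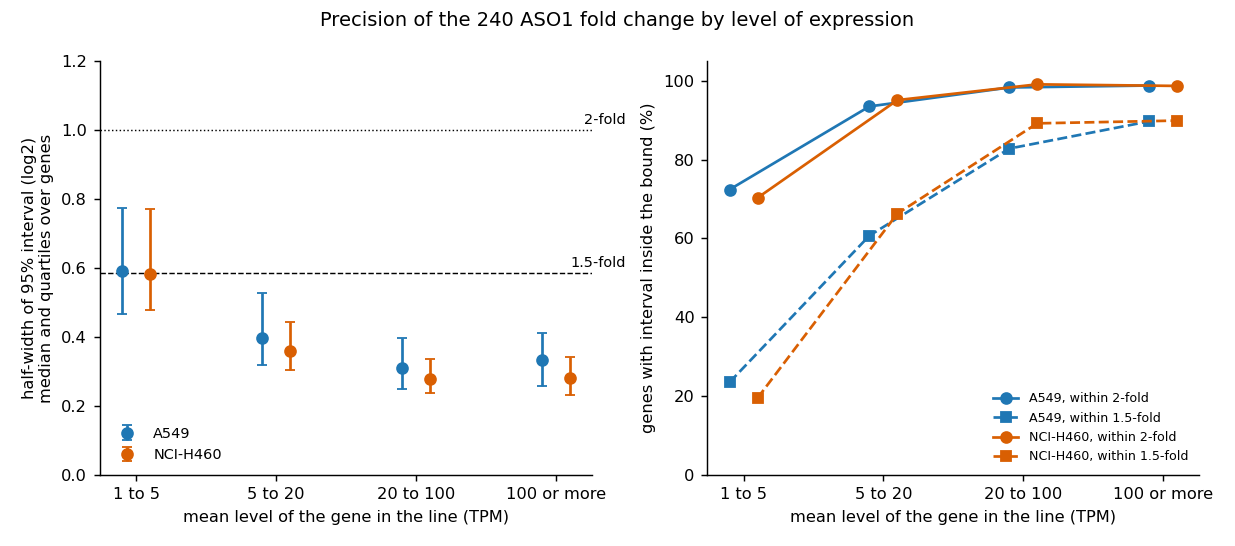
Left, the margin of the 95% confidence interval of the 240 ASO1 log2 fold change (point, median over genes; bar, quartiles) by mean TPM of the gene, with lines at 1.5-fold and 2-fold; right, the percentage of genes whose whole interval lies inside 2-fold (circles, full lines) or 1.5-fold (squares, dashed lines), in A549 (blue) and NCI-H460 (orange). The median margin falls from 0.59 and 0.58 at 1 to 5 TPM to 0.31 and 0.28 at 20 to 100 TPM.

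Genes that ASO3 moved strongly were read next for their ASO1 estimates and intervals, since no gene at all was called with ASO1. They were picked by their change with ASO3. The p-values of ASO3 minus ASO1 therefore reuse the libraries that picked them. MCM6, a subunit of the replicative helicase, stood at 45.9, 52.8 and 43.0 TPM in A549 controls and at 56.4, 49.0 and 50.7 TPM with ASO1 (log2 fold change 0.14, interval -0.10 to 0.38). It was 3.26 lower on the log2 scale with ASO3 than with ASO1 (difference -3.26, adjusted p = 1.44e-09). In NCI-H460 it stood at 55.8 and 56.5 TPM in controls and 54.3 and 52.8 TPM with ASO1 (-0.07, interval -0.37 to 0.23), and ASO3 minus ASO1 was -2.12 (adjusted p = 0.000668). The intervals with ASO1 leave room for less than a 1.5-fold change of MCM6 in either line. NR3C1, the glucocorticoid receptor gene, was measured less tightly in A549, at 16.1, 29.8 and 36.3 TPM in controls and 22.0, 31.6 and 34.1 TPM with ASO1 (0.14, interval -0.54 to 0.82). In NCI-H460 its 6.44 and 7.24 TPM with ASO1 lay below the controls at 8.66 and 8.86 TPM without passing (-0.34, interval -0.85 to 0.17). ASO3 minus ASO1 was -3.32 and -1.57 for NR3C1 (adjusted p = 1.33e-05 and 0.00915).

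Other genes named for their large fall with ASO3 stood slightly above control with ASO1 in A549, and below control in NCI-H460. In A549 the transcription factor gene NFIC stood at 107% of control with ASO1, the GDP-mannose dehydratase gene GMDS at 101%, the actin-binding gene CAP2 at 107% and the chromatin gene BAZ2B at 102%. In NCI-H460 CAP2 stood at 87.7%, BAZ2B at 75.5%, the phosphatase gene PTPRG at 77.6% and the glycosyltransferase gene GALNT13 at 84.7%, none of which passed. Among genes that ASO3 raised, GPX2, a glutathione peroxidase gene of epithelium, stood at 101% in A549, and the interferon-induced OASL at 0.307, 0.226 and 0.577 TPM with ASO1 against 0.392, 0.559 and 0.568 TPM in controls. OASL was 2.28 higher on the log2 scale with ASO3 than with ASO1 in A549 and 2.41 higher in NCI-H460. In A549 it reached the filter only through libraries of the other ASOs, so these differences are given as a description.

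Over all genes called with ASO3, the ASO1 estimates were centred near 0 in A549. The 884 genes called higher had medians of 0.76 with ASO3 and 0.02 with ASO1 on the log2 scale, and the 1152 called lower had medians of -0.78 and 0.01. The ASO1 interval lay within 2-fold for 95.6% and 97.7% of them, against 89.3% of all A549 genes tested. In NCI-H460 the medians were 0.74 with ASO3 and 0.17 with ASO1 for the 365 genes called higher, and -0.80 and -0.11 for the 415 called lower. There 93.2% and 97.8% lay within 2-fold, against 88.9% of all genes tested. An unadjusted ASO1 p under 0.05 (limma) was held by 59 and 27 of these genes, where 3.58% of all NCI-H460 genes had one. In A549 it was held by 20 and 10, where 1.81% of all genes had one. A gene has the same SE in both comparisons, so selecting genes called with ASO3 favours narrow ASO1 intervals. Both ASOs were compared with the same control libraries, so a shift of the controls enters both values. These medians and counts are given side by side without a test.

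Gene lists of pathways that ASOs or loss of a lncRNA could touch were then read as counts. With ASO1, 0 members of any list were called in either line, and the median over all tested genes was 0.01 in A549 and -0.00 in NCI-H460 on the log2 scale. After every library was rescaled to one sum, the NCI-H460 median over all tested genes was -0.086. List counts after rescaling carry that shift of all genes. p53 targets, which arrest the cell cycle or start cell death, had 12 of 30 members above 0 in A549 (median -0.01) and 11 of 28 in NCI-H460 (-0.03). CDKN1A, the gene of the p21 inhibitor of cyclin-dependent kinases, stood at 164, 132 and 136 TPM in A549 controls and 149, 139 and 140 TPM with ASO1, and at 67.7 and 65.4 against 66.2 and 68.8 TPM in NCI-H460. Its intervals, -0.23 to 0.22 and -0.16 to 0.20, are among the tighter bounds, while ASO3 raised CDKN1A in both lines by 0.66 and 0.96 (adjusted p = 0.000853 and 0.00157). With ASO3, 10 and 9 p53 targets rose, against 6% and 2.65% of all genes.

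Cell cycle genes were bounded in the same way. Of 34 genes of the G1/S step and of replication, 20 in A549 and 18 in NCI-H460 lay above 0 with ASO1 (medians 0.03 and 0.00), and all 34 intervals lay within 2-fold in each line. ASO3 lowered 14 of them in A549 and 2 in NCI-H460, against 7.82% and 3.01% of all genes. Of 36 genes of G2/M and mitosis, 32 lay above 0 in A549 (median 0.13) and 10 in NCI-H460 (-0.08), again with all 36 intervals within 2-fold. The NCI-H460 count was 4 of 36 after rescaling (-0.17). Without control replicate 3 the A549 count was 23 of 36 (median 0.04), and without ASO1 replicate 3 it was 25 of 36 (0.07). CCNB1, the mitotic cyclin gene, stood at 109% of control in A549 and 94.4% in NCI-H460, and PCNA, the replication clamp gene, at 108% and 97.6%.

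Interferon-stimulated genes, which respond to foreign nucleic acids, showed no call with ASO1. In A549 10 of 19 lay above 0 (median 0.00) and in NCI-H460 14 of 22 (0.03), while ASO3 raised 8 in each line, against 6% and 2.65% of all genes. ISG15, a ubiquitin-like antiviral protein gene, stood at 17, 13.5 and 10.6 TPM in A549 controls and 17.1, 9.37 and 10.7 TPM with ASO1, and at 16.4 and 11.2 against 14.7 and 19 TPM in NCI-H460. ASO3 was higher than ASO1 by 2.16 and 1.58 for ISG15 (adjusted p = 0.000283 and 0.012). IRF9, part of the interferon-activated factor ISGF3, had the smallest p of the list in NCI-H460, at 6.09 and 5.24 TPM in controls and 7.67 and 9.56 TPM with ASO1 (0.56, unadjusted p = 0.00586, adjusted p = 0.927). Of the sensors of nucleic acids, such as the RIG-I pathway, 5 of 10 lay above 0 in A549 and 3 of 11 in NCI-H460.

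The genes that act on ASOs themselves were measured as well. Of 22 genes of RNase H and nuclear RNA decay, 14 lay above 0 in A549 and 8 in NCI-H460 (medians 0.02 and -0.09), and of 19 genes of paraspeckles and other ASO-binding proteins 14 and 8 did (0.10 and -0.03). XRN2, a nuclear exonuclease that degrades cleaved RNA, stood at 107% and 93.0% of control. Cholesterol and fatty acid synthesis had 22 of 30 members above 0 in A549 and 21 of 29 in NCI-H460, both with a median of 0.09. The NCI-H460 count was 15 of 29 after rescaling (median 0.0019, against -0.086 over all genes). The A549 median was 0.04 without ASO1 replicate 5 (18 of 30). FASN, the fatty acid synthase gene, stood at 103% and 120% of control, and SQLE, a sterol enzyme gene, at 111% and 99.8%. ASO3 raised 12 of these genes in A549 and 1 in NCI-H460, against 6% and 2.65% of all genes, so that the NCI-H460 count is near the background. In the unfolded protein response of the endoplasmic reticulum 15 of 21 and 16 of 22 lay above 0, and the chaperone gene HSPA5 stood at 103% and 104%, while ASO3 lowered 11 and 4 members, against 7.82% and 3.01% of all genes.

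Housekeeping groups were read beside all well expressed genes. Of all genes at 20 to 100 TPM, 82.8% in A549 and 89.2% in NCI-H460 had intervals within 1.5-fold. At 100 TPM or more the shares were 89.7% and 89.9%. The intervals of all 30 proteasome genes lay within 1.5-fold in both lines. Of 26 reference genes, all 26 lay within 2-fold in each line, and 23 in A549 and 25 in NCI-H460 within 1.5-fold. ACTB stood at 4552, 4194 and 3742 TPM in A549 controls and 4662, 3947 and 3997 TPM with ASO1 (log2 fold change 0.01, interval -0.36 to 0.39), and TBP, a general transcription factor gene, stood at 101% of control in A549 and 94.0% in NCI-H460. NRF2 targets, which defend against oxidants, had all 30 intervals within 2-fold in each line, and NQO1 stood at 101% and 100% of control. NF-kB, TGF-beta, YAP, hypoxia and apoptosis lists had medians between -0.10 and 0.07. The A549 YAP median was -0.23 without control replicate 3 (5 of 20 above 0) and 0.11 without control replicate 5 (14 of 20). In A549 only 4 of 20 YAP and 7 of 17 NF-kB intervals lay within 1.5-fold. Nuclear genes of the respiratory chain had 21 of 30 members above 0 in each line (medians 0.04 and 0.06). The A549 count was 7 without ASO1 replicate 3 (median -0.04), 13 without control replicate 5 (-0.03) and 29 without control replicate 3 (0.10), and the NCI-H460 count was 12 (-0.03) after every library was rescaled to one sum. Immediate early genes, which respond within minutes to growth signals, had 3 of 22 above 0 in A549 (-0.10) and 16 of 21 in NCI-H460 (0.09). The counts were 8 of 22 without A549 control replicate 5 (-0.03) and 11 of 21 in NCI-H460 after rescaling (0.0013). Retinoid genes had 9 of 17 and 9 of 14 above 0 (0.01 and 0.10). Over the 24 lists, the sign of the ASO1 median turned under at least 1 alternative in 17 lists in A549 and 14 in NCI-H460. Rescaling, which put the NCI-H460 median over all tested genes at -0.086, is among these alternatives.

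**Figure D4:**
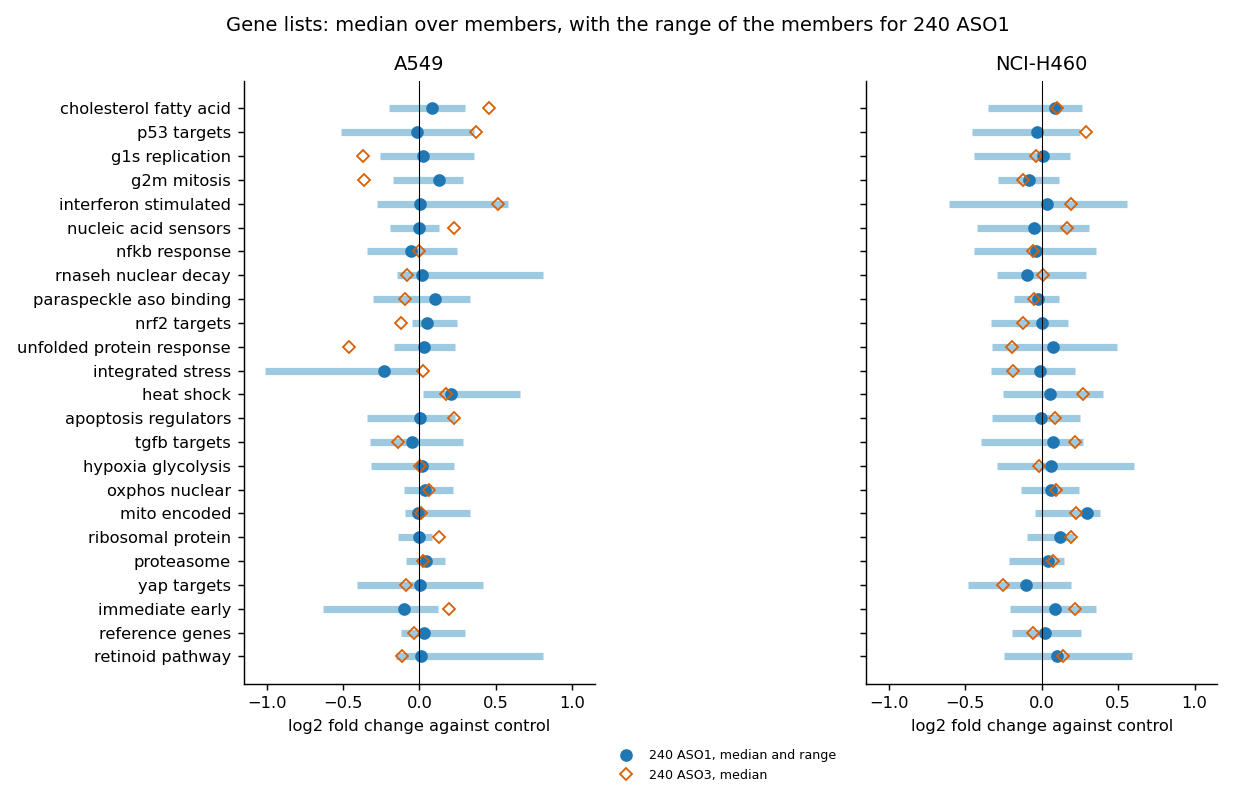
Log2 fold change against control for each gene list with at least 10 tested members, as the median over members with 240 ASO1 (blue circle) and with 240 ASO3 (orange diamond), and the range of members with 240 ASO1 (bar), in A549 (left) and NCI-H460 (right). The ASO1 medians lie between -0.10 and 0.13, except integrated stress (-0.23) and heat shock (0.21) in A549 and mitochondrially encoded genes (0.30) in NCI-H460.

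The largest list medians in A549 rested on 1 control library. Genes of the integrated stress response, which ATF4 drives when amino acids or protein folding fail, were all below 0 with ASO1 (22 of 22, median -0.23), and heat shock genes, which encode chaperones, were all above 0 (20 of 20, median 0.21). No member passed. DDIT3, an ATF4-induced transcription factor gene, stood at 13.1, 8.66 and 65.1 TPM in the controls and at 12.1, 7.37 and 9.55 TPM with ASO1, so that control replicate 5 alone was high. CHAC1, a glutathione-degrading enzyme gene of the same response, stood at 9.69, 8.11 and 54.0 TPM against 8.44, 8.41 and 11.2 TPM. HSPA8, a constitutive chaperone gene, stood at 1063, 1083 and 416 TPM against 1186, 1023 and 1005 TPM, and HSPA1A, a heat-induced one, at 372, 426 and 87.7 TPM against 318, 412 and 419 TPM. In both chaperone genes control replicate 5 was the low library.

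Without control replicate 5, 11 of 22 integrated stress genes were above 0 (median -0.00447) and 10 of 20 heat shock genes (median -0.00279). DDIT3 then had a log2 fold change of -0.16 in place of -1.01, CHAC1 of 0.06 in place of -0.79, and HSPA1A of -0.07 in place of 0.66. Averaged over the 22 genes, control replicate 5 lay 0.99 above the mean of the other controls on the log2 scale, while the ASO1 libraries lay at 0.09, -0.11 and 0.04 and the libraries of the other 3 ASOs between 0.18 and 0.44. The comparison of ASO1 with the remaining controls still gave 0 calls (282 genes at an unadjusted p under 0.05). In NCI-H460 the same lists had 9 of 22 and 13 of 20 members above 0 (medians -0.01 and 0.05).

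**Figure D5:**
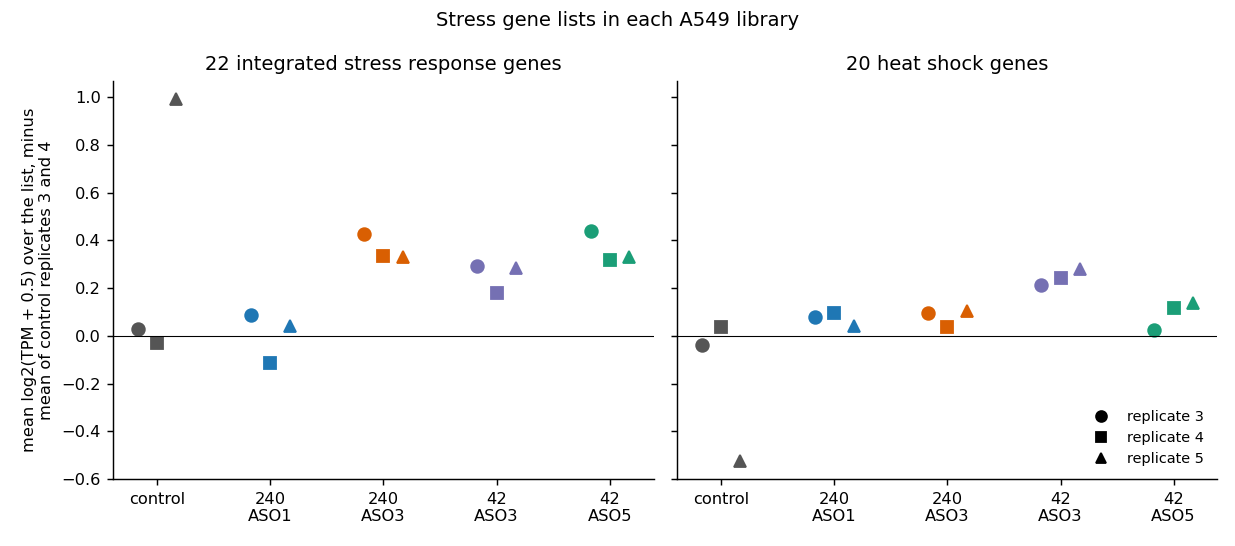
Mean log2(TPM + 0.5) over 22 integrated stress response genes (left) and 20 heat shock genes (right) in each A549 library, as the difference from the mean of control replicates 3 and 4, with one point per library, shaped by replicate number and coloured by group. Control replicate 5 lies at 0.99 and -0.53, and the 240 ASO1 libraries lie between -0.11 and 0.09.

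Mitochondrially encoded genes were the list with the highest median in NCI-H460. These 13 genes encode subunits of the respiratory chain and are transcribed inside the organelle. With ASO1 12 of 13 lay above 0 (median 0.30), and in 11 both ASO1 libraries lay above both controls, a separation in that direction that 22.1% of all NCI-H460 genes showed. MT-ND1, a complex I subunit gene, stood at 3113 and 3098 TPM in controls and 4288 and 3705 TPM with ASO1 (0.36, interval 0.06 to 0.66, adjusted p = 0.927). MT-CO1 stood at 10048 and 9839 TPM against 13177 and 11208 TPM. No member passed, 3 had an unadjusted p under 0.05, and the median was 0.20 without ASO1 replicate 1. Mitochondrial transcripts made up 8.05% and 7.93% of the signal in controls and 9.85% and 8.48% with ASO1. Averaged over the 13 genes, the ASO1 libraries lay 0.34 and 0.20 above the control mean on the log2 scale, those of 240 ASO3 0.21 and 0.25, those of 42 ASO3 0.20 and 0.31, and those of 42 ASO5 at 0.13 and -0.01. All are set against the same 2 controls. In A549 the median was -0.01, with 6 of 13 above 0. Cytosolic ribosomal protein genes had 28 of 32 above 0 in NCI-H460 (median 0.12). After every library was rescaled to one sum they had 19 of 32 (0.03, against -0.086 over all genes). Without ASO1 replicate 2 the count was 17 of 32 (0.013). What part library composition has in this was not tested.

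The genes of smallest p were mostly low, and none passed in A549 or NCI-H460. Of the 10 with the smallest p in each direction, all were under 10 TPM in 3 of the 4 sets, and 8 of 10 in the genes that were higher in A549. IPO4, an importin gene for nuclear import, was the best expressed, at 73.9, 68.5 and 61.8 TPM in A549 controls and 106, 80.8 and 99.3 TPM with ASO1. All ASO1 libraries lay above all controls (log2 fold change 0.48, SE 0.11, adjusted p = 1), as in 2.82% of A549 genes. In 2.43% all ASO1 libraries lay below all controls, 5.25% in either direction. In NCI-H460 IPO4 lay at -0.26. RDM1, a DNA repair gene, stood at 4.44, 4.49 and 4.51 TPM against 6.04, 7.26 and 7.27 TPM, and FAM98A at a log2 fold change of 0.46. SEMA3B-AS1, an antisense RNA whose reads cannot be told from those of its opposite strand since the handling of strand is not given, stood at 2.87, 1.93 and 2.61 TPM in controls and at 1.09, 0.327 and 0.614 TPM with ASO1 (-1.37, adjusted p = 1). With ASO3, against the same controls, it fell by 1.30 (adjusted p = 0.0133), and ASO3 minus ASO1 was 0.07 (adjusted p = 0.913). The homeobox gene IRX5 stood at -0.49 and GTF2IRD2, one of a set of near-identical genes, at -0.75.

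In NCI-H460 the gene nearest the threshold was RN7SL693P, a pseudogene of the signal recognition particle RNA. It was listed at 0 in both controls and stood at 3.48 and 3.55 TPM with ASO1 (unadjusted p = 4.42e-06, adjusted p = 0.0609). In the authors' deposited table its q-value is 0.288, the smallest there, held by 620 genes. In A549 it stood at 0, 0 and 0.131 TPM in controls and 2.49, 0 and 0.526 TPM with ASO1, ranges that overlap. Among the genes with lower values, the names MIR6724-1 to MIR6724-4 held the same values as each other in every library, 2.76 and 0.799 TPM in controls and 0 and 0.191 TPM with ASO1. The hairpin, shown because its sequence is identical in all 4 MIR6724 genes, is printed in lower case from GENCODE v29. Its coordinates chr21:8205315-8205406 (plus strand, GRCh38) are those of MIR6724-1, and reads of the 4 genes cannot be told apart within it.
MIR6724-1 to MIR6724-4: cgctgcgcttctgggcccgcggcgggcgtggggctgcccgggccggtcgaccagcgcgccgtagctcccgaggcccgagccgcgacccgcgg
Protein-coding genes among the smallest p in NCI-H460 were PCOLCE, a collagen-processing enhancer gene (3.56 and 4.46 against 9.12 and 6.53 TPM, 0.87), the fucosyltransferase gene FUT10 (5.71 and 6.29 against 3.28 and 3.84 TPM, -0.68), ICA1L (-1.22) and RAB30 (3.11 and 2.94 against 1.60 and 1.57 TPM, -0.76), each at an adjusted p of 0.927. Both ASO1 libraries lay outside the control range in these genes, as in 46.9% of all NCI-H460 genes (22.1% above and 24.7% below), where 2 libraries against 2 separate easily.

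Last, the responses of the lines were compared. The test of the difference itself called 0 of 14769 genes (0%, limma over all 25 libraries), with 410 (2.78%) at an unadjusted p under 0.05 and a smallest adjusted p of 0.972. The median margin of that difference was 0.59 on the log2 scale. IPO4 had the smallest p (A549 minus NCI-H460 0.74, SE 0.18), followed by AC108488.1 (-1.57) and IRF9 (-0.84). Among the 12760 genes tested in both lines, 205 had an unadjusted p under 0.05 in A549 and 445 in NCI-H460. The lists shared 10 genes, 4.88% of the A549 list, where 3.58% of all tested NCI-H460 genes had such a p. They are 2.25% of the NCI-H460 list, where 1.81% of all tested A549 genes did, so the overlap is near the background. Of the 10, 2 had the same direction (AC018638.1 and PJA1). PER1, a clock gene, was among those with opposite signs (-0.66 and 0.52). Across the 12760 genes, which are not independent replicates, the ASO1 fold changes of the lines had r = -0.23 (rho -0.34) as a description, with no shared library between them. Without A549 control replicate 3 r was 0.0076, and without each of the other 9 libraries it lay between -0.32 and -0.14. The same description gave r = 0.52 for ASO3.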

How the data were processed

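RNA of A549 and NCI-H460 was extracted with a column kit (Quick-RNA MiniPrep, Zymo) and made into NEBNext Ultra RNA libraries, per the labels' protocols. Kallisto, sleuth 0.30 and build hg38 are listed in the submitters' processing notes. Not given in the sources used here are the annotation release and the use of strand. The deposited signal is a TPM value for each of 59427 gene names and each library, and its sums differ between libraries, so the authors had rescaled it. The authors' deposited tables per line, per the file headers, hold a log2 fold change, a q-value and a mean signal for each group. Their means equal those of the TPM table in A549 (ratio 1) and lie at 0.667 of them in NCI-H460 for both groups.

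Values were taken as log2(TPM + 0.5), and genes that averaged 1 TPM or more in the line were fitted with limma 3.58.1 in R 4.3.3 (lmFit, contrasts.fit, eBayes with a trend) on all 5 groups of a line, which leaves 10 and 5 residual degrees of freedom. P-values are two-sided, and Benjamini and Hochberg's adjustment ran over all genes in a fit. The difference between lines was fitted on all 25 libraries (15 residual degrees of freedom). Intervals are 95% confidence intervals from the same fits, SD is the standard deviation over libraries and SE the standard error. The fit was tested on simulated data. In A549, ASO1 and control libraries of the same number deviated together (r = 0.41, 0.198 and 0.170), as did ASO1 and ASO3 libraries (0.479, 0.270 and 0.244). ASO1 and control libraries of unlike number had r from -0.29 to 0.182, the highest for ASO1 replicate 4 with control replicate 5. Pairing by number was thus clear only for replicate 3. Deviations are from the group mean, so values of unlike number are not independent of those of equal number. In NCI-H460 the libraries of a group deviate from their mean as mirror images. ASO1 and control there gave a single value (r = 0.0169), with no independent unlike pair to set it against.

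Named genes are those of the locus, the 10 of smallest p in each direction where fewer are called, the 10 with the largest change in each direction with ASO3, the 4 most expressed members of each list, reference genes, and the 10 of smallest p between lines. SQLE, ISG15, DDIT3, CHAC1, HSPA1A, MT-ND1, PER1, PJA1, AC018638.1, RPS28P7 and the marker genes were named after their values were seen. The members, lists and rules were chosen with earlier results of these data known. Sequences are from GENCODE v29, and some were withheld and are not reported here. Alternatives were other pseudocounts, filters and scalings, only the groups compared, a replicate block and leaving out each library.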

Additional observations from a re-analysis of the deposited data

How the results depend on the processing

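With ASO1 against control, 0 genes were called in A549 under each other pseudocount, scaling, filter above 1 TPM, replicate block (647 genes at an unadjusted p under 0.05) and left-out library, and 5 without a filter on low values (RN7SL279P, RPL9P25, AC100835.2, MIR23C and AC012462.3). In NCI-H460 1 gene, RN7SL693P, was called with a pseudocount of 1 and 1 after rescaling to one sum, 44 without a filter (21 higher, 23 lower), 0 with the replicate block, and 0 to 2 when a library was left out, the 2 (MT-TS2 and RNU6-685P) without control replicate 2. The difference between lines gave 34 calls without a filter. The cause of these changes was not tested.

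The median margin in A549 was 0.43 and 0.38 with pseudocounts of 0.1 and 1, 0.36 without a filter, 0.35 from 5 TPM, 0.44 rescaled, 0.42 with only the groups compared, 0.30 with the replicate block and 0.434 to 0.470 with a library left out. In NCI-H460 it was, in that order, 0.39, 0.35, 0.36, 0.32, 0.43, 0.28, 0.37 and 0.483 to 0.487. ASO3 minus ASO1 gave 1245 calls in A549 with only the groups compared, 4411 with the replicate block and 1582 to 2212 with a library left out (1582 and 1633 without ASO1 replicates 4 and 5), and in NCI-H460 215 without a filter, 193 with only the groups compared, 353 with the replicate block, where numbers did not pair libraries (r = 0.0782), and 52 to 181 with a library left out. AC015712.6 in A549 kept -0.31 with the replicate block (exact sign-flip test over pairs, p = 0.25, added after seeing the data), and in NCI-H460 it moved between -0.049 and 0.095 with a library left out. Of 7761 values of 603 single-gene results under the alternatives, 3 passed, all of RN7SL693P. Read numbers are unknown, so what depth limits could not be computed, and in NCI-H460 the pairs of libraries limit the precision.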

Other observations

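Short noncoding RNAs, a grouping chosen after the values were seen, were the least bounded genes. In NCI-H460 21 of 34 signal recognition particle RNA pseudogenes (RN7SL names) lay above 0 with ASO1 and 5 of them had an unadjusted p under 0.05 in limma, all higher, where 3.58% of all genes had one. In A549 14 of 34 lay above 0 and 0 had such a p. Of 72 microRNA hairpin names 45 lay below 0 in NCI-H460, against 34 of 75 in A549. Of 24 names of small nuclear RNAs and their pseudogenes (RNU) 17 lay below 0 in NCI-H460 (median log2 fold change -0.94). In A549 18 of 30 lay above 0 (0.25), and 3 higher and 5 lower had an unadjusted p under 0.05. The median margins of these groups ran from 1.38 to 1.89 on the log2 scale, wider than a 2-fold change, and no member passed at an adjusted p under 0.05.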
